A study of Mus musculus with 6 samples.

Results

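The CXC chemokines are small secreted proteins, named for a pair of cysteines set 1 residue apart, that guide leukocytes through tissues. The set described here has 10 genes of the deposited count table, chosen by name as Cxcl1, Cxcl2, Cxcl3, Cxcl5, Cxcl9, Cxcl10, Cxcl12, Cxcl13, Cxcl16 and Pf4, out of 22377 genes in all. Of these, 8 passed the filter on low counts and were tested, and Cxcl12 and Cxcl13 were too low to be tested. The RNA came from tumors of Lewis lung carcinoma (LLC), a mouse lung cancer cell line, grown under the skin of the left groin for about 2 weeks in male and female mice of 6 to 8 weeks of age. According to the methods of the study, the RNA was that of tumor macrophages sorted as positive for CD45, CD11b and F4/80, whereas the sample labels name tumor tissue as the source. The labels call 3 libraries wt, here Npm1+/+, and 3 libraries ko and knockdown, here labelled Npm1+/-. The Npm1+/- mice carry 1 disrupted copy of Npm1, the gene of the nucleolar protein nucleophosmin, in every cell of the host and not in macrophages alone, and the LLC cells were injected into them. The labels say only that each library is a separate biological sample. For a heatmap of these data the study gives fewer mice per group than there are libraries, so whether each library came from a mouse of its own cannot be told, and n below counts libraries.

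Chemokines of this family fall into groups by receptor. Those with a glutamate-leucine-arginine (ELR) motif before the cysteines, among them Cxcl1, Cxcl2, Cxcl3 and Cxcl5, act on Cxcr2 and draw neutrophils, and macrophages make them after Toll-like receptor or interleukin-1 signals through NF-kB. Cxcl9 and Cxcl10 are induced by interferons, act on Cxcr3 and draw activated T cells and NK cells. Cxcl12 and Cxcl13 are homeostatic ligands of Cxcr4 and Cxcr5, made mainly by stromal cells. Cxcl16 is held in the membrane and binds Cxcr6, and Pf4, platelet factor 4, is stored in platelet granules and is also transcribed in some tissue macrophages.

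Most of the genes lie together in the genome. Of the 10 genes, 8 are on chromosome 5 of GRCm38 (the build of the submitters' notes, mm10) in the GENCODE annotation. Cxcl5 (90759360-90761624), Pf4 (90772435-90773383), Cxcl3 (90786103-90789600), Cxcl1 (90891241-90893115) and Cxcl2 (90903871-90905938) form a block of 146.6 kb on the plus strand. Cxcl9 (92321347-92328079) and Cxcl10 (92346638-92348889) lie on the minus strand, 18558 bp apart, and Cxcl13 is at 95956951-95961068 on the plus strand. Cxcl12 is on chromosome 6 (117168535-117181367, plus strand) and Cxcl16 on chromosome 11 (70453983-70459984, minus strand). Cxcl10 overlaps Art3, and Cxcl16 overlaps Zmynd15, each on the other strand. Whether reads were counted by strand is not given in the sources used here, and Art3 had at most 22 counts and Zmynd15 at most 402. Cxcl2 and Cxcl3 share sequence: 5.84% of the 50-base stretches of Cxcl2 transcripts and 4.24% of those of Cxcl3 occur in another gene, for Cxcl2 in Cxcl3 alone, so that a small share of their reads could be divided between them.

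The bases before the start sites are shown because Cxcl1, Cxcl2 and Cxcl3 are the most abundant of the set and Cxcl9 and Cxcl10 the pair induced by interferon. Promoters of 8 genes were found in RefSeq (GRCm38.p6), and those of Cxcl5 and Cxcl16 are not shown. The stretches end just before the earlier of the start sites in RefSeq and GENCODE and read 5′ to 3′ in the direction of the gene. Capitals mark matches, on either strand, to an NF-kB string (GGG, any 3 bases, then TTCC), a gamma-activated (GAS) string (TTC, any 3 bases, then GAA) and an interferon-stimulated response element (ISRE) string (GAAA, any 2 bases, then GAAA). These strings were chosen with the sequences in view.
Cxcl1, chr5:90891131-90891240, plus strand: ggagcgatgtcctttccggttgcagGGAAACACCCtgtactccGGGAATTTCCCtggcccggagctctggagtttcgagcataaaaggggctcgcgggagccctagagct
Cxcl2, chr5:90903761-90903870, plus strand: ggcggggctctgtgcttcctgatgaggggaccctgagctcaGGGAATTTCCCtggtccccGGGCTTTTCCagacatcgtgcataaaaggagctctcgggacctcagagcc
Cxcl3, chr5:90785991-90786100, plus strand: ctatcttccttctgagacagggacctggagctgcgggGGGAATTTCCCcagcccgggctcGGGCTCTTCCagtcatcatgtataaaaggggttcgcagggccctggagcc
Cxcl9, chr5:92328080-92328329, minus strand: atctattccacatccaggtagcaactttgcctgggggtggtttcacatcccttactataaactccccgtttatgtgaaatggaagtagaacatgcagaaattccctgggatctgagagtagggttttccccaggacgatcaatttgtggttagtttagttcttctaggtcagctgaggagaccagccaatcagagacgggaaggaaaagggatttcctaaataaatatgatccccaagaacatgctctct
Cxcl10, chr5:92348890-92349139, minus strand: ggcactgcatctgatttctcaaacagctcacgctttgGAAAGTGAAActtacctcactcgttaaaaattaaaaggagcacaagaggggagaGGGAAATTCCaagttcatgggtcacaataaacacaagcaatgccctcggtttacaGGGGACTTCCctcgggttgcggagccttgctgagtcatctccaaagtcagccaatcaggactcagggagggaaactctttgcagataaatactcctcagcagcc
Cxcl1, Cxcl2 and Cxcl3 each hold GGGAATTTCC. Its nearest base lies 62, 88 and 64 bases before the RefSeq start of Cxcl1, Cxcl2 and Cxcl3, and the matches on the 2 strands overlap there. Cxcl1 also holds a match on the other strand, GGAAACACCC, farther from the start. Cxcl2 and Cxcl3 hold another match closer to the start, GGGCTTTTCC and GGGCTCTTCC, and Cxcl10 holds GGGAAATTCC and GGGGACTTCC. The NF-kB string thus occurs in 4 of the 8 promoters, against 4.6% of the 27025 promoters of the table over the same 250 bases. Because the strings were chosen with these sequences in view, this contrast is a description and not a test. The ISRE string occurs in Cxcl10 alone of the 8, as GAAAGTGAAA, and in 3.04% of all promoters. No GAS string was found in the 8 promoters, against 7.18% of all. The string GCGTG, named in the study as the site covered by its primers for STAT3 at the Ccrl2 promoter, occurs in Cxcl2, Cxcl10 and Cxcl13 and in 28.2% of all promoters. A match is a string of letters and not a measured binding site. The lack of a match, as in Cxcl9, does not show that a promoter lacks such an element, since variants of the strings were not searched.

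The libraries were of nearly equal depth, with total counts of 36550775 to 38147320. Npm1 itself stood at 142, 380.2 and 381 CPM (counts scaled by library size and TMM factor, which removes differences in depth and composition) in Npm1+/+ replicates 1, 2 and 3, and at 441, 499 and 343 in labelled Npm1+/- replicates 1, 2 and 3. Its log2 fold change was 0.51 (adjusted p = 0.436 from edgeR), and 0.16 without Npm1+/+ replicate 1. The targeted transcript was therefore not lower in the libraries labelled Npm1+/-, and every direction below is one between labels. Npm1+/+ replicate 1 had the lowest level of Npm1 and, at 32.7 CPM, of the summed fibroblast markers. The fold changes of the chemokines are therefore shown with and without it in the plot of intervals, and those of the receptors and pathway lists are over 6 libraries. Of the macrophage markers, 10 of 10 were measured and tested, with sums of 5758 to 6918 CPM in Npm1+/+ and 3257 to 5452 in labelled Npm1+/- libraries. Their estimates were below 0 for 10 of 10, with a median log2 fold change of -0.54 and 0 called by edgeR. In 8 of 10 the groups did not overlap, against 25.9% of all genes tested, in either direction. Itgam alone stood at 2708 to 2975 CPM in Npm1+/+ and 1492 to 2660 CPM in labelled Npm1+/- libraries. Neutrophil markers (10 of 10 in the table) summed to 1893 to 2120 CPM and 839 to 1613 CPM, and markers of T and NK cells (9 of 10 in the table) to 34.2 to 114 and 90.3 to 257. Fibroblast markers (10 of 10 in the table) summed to 32.7 to 491 CPM in Npm1+/+ and 369 to 715 in labelled Npm1+/- libraries. No marker of these 4 lists was at 0 counts in every library. In bulk RNA, fewer cells of a type and less RNA per cell cannot be told apart.

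Levels per gene length were compared first, with the deposited FPKM values (fragments scaled by gene length and library total). CXC chemokines were among the most abundant transcripts of these libraries. Cxcl2 ranked between 3 and 5 among all genes in each library, with 4623, 6641 and 6241 FPKM in Npm1+/+ replicates 1, 2 and 3 and 5873, 4866 and 7819 in labelled Npm1+/- replicates 1, 2 and 3. Cxcl3 ranked between 13 and 44 and Cxcl1 between 19 and 162. Cxcl1, Cxcl2 and Cxcl3 together held 90.5% to 92.6% of the FPKM of the 10 genes. Reads of the 10 genes made up 0.726% of all counts in Npm1+/+ replicate 1 and between 0.931% and 1.34% in the other libraries.
Below Cxcl2, Cxcl3 and Cxcl1 (means of 6010.5, 2062 and 1316 FPKM over the 6 libraries) came Cxcl10 (454), Pf4 (357), Cxcl16 (59.6), Cxcl9 (12.2) and Cxcl5 (8.89). The first 3 kept this order in all 6 libraries. Cxcl10 was above Pf4 in 5 of 6 libraries, the exception being Npm1+/+ replicate 1, so that these neighbours did not differ beyond their spread. Cxcl9 was above Cxcl5 in 4 of 6 libraries. Pf4 and Cxcl16 differed 5.99-fold, and Cxcl16 and Cxcl9 4.9-fold, with the same order in each library. Cxcl13 and Cxcl12 lay near 0, at means of 0.0374 and 0.02 FPKM.

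**Figure D1:**
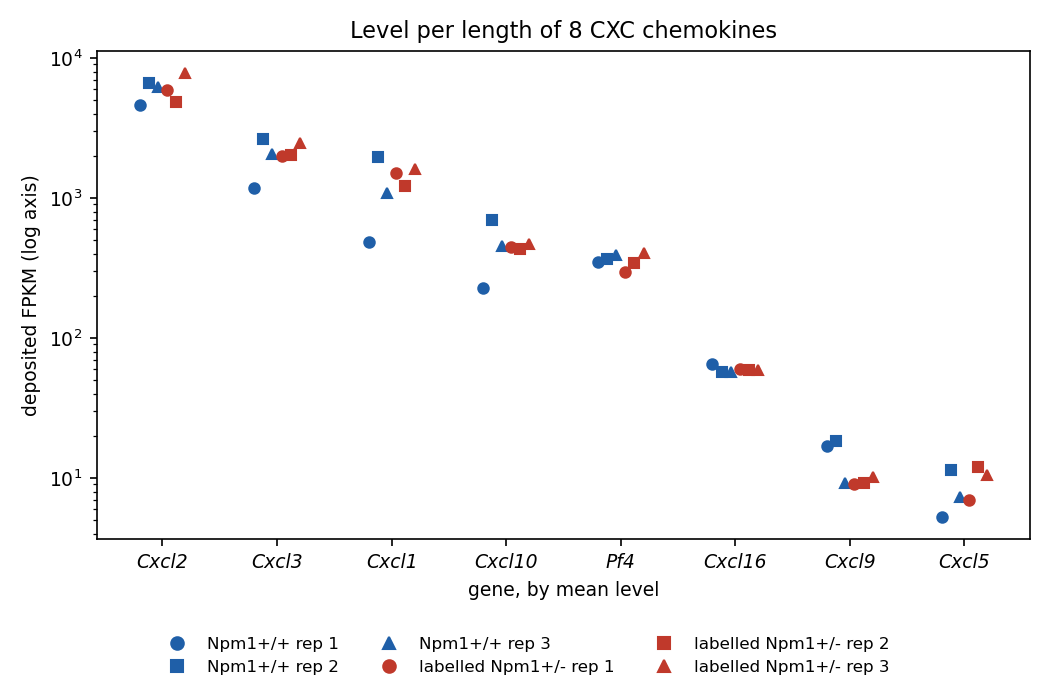
Deposited FPKM (vertical, log axis) of the 8 tested CXC chemokines, ordered by mean level, with 1 point per library (blue, Npm1+/+; red, labelled Npm1+/-; circle, square and triangle, replicates 1, 2 and 3). Cxcl2 lies between 4623 and 7819 FPKM in every library and Cxcl5 between 5.3 and 11.9.

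None of the 8 tested genes passed the threshold between the groups. edgeR's quasi-likelihood test called 0 of 8 at an adjusted p under 0.05 over 6 libraries, where it called 0% of the 13884 genes tested. At an unadjusted p under 0.05 it found 1 of 8, Cxcl9, against 15.2% of all genes tested. DESeq2 on the same libraries called 0 of 8, against 0.263% of all genes. In 0 of 8 genes the values of the groups were without overlap, against 25.9% of all genes tested. Estimates were above 0 for 3 of the 8 genes and below 0 for 5, with a median log2 fold change of -0.10, against 0.02 over all genes tested. The intervals given below are 95% intervals of the log2 fold change, labelled Npm1+/- over Npm1+/+, and they show what size of difference these libraries leave possible.

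**Figure D2:**
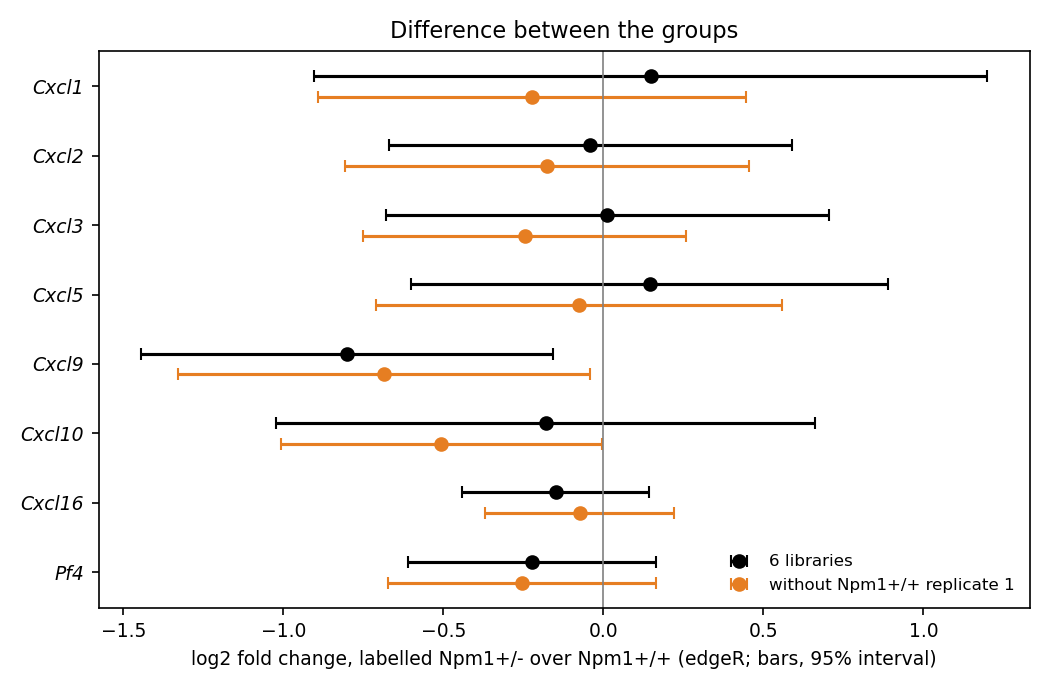
log2 fold change of labelled Npm1+/- over Npm1+/+ libraries (horizontal) for each of the 8 tested genes, with its 95% interval, over 6 libraries (black) and without Npm1+/+ replicate 1 (orange). Cxcl9 is the gene whose interval over 6 libraries does not reach 0, and its adjusted p from edgeR was 0.328.

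Among the ELR chemokines, Cxcl2, a strong neutrophil attractant made early by activated macrophages, stood at 5371, 7708 and 6876 CPM in Npm1+/+ replicates 1, 2 and 3 and at 6057, 4598 and 8739.7 in labelled Npm1+/- replicates 1, 2 and 3. The lowest and the highest library both carried the label Npm1+/-, and the groups overlapped over most of their range. Npm1+/+ libraries averaged 6651 ± 1185 CPM (SD, n = 3) and labelled Npm1+/- libraries 6465 ± 2101 CPM (SD, n = 3), with a log2 fold change of -0.04 (interval -0.67 to 0.59, adjusted p = 0.937 from edgeR).
Cxcl1, also known as KC, a ligand of Cxcr2 as well, had 500.3, 2025 and 1060.4 CPM in Npm1+/+ and 1380.4, 1016 and 1577 CPM in labelled Npm1+/- replicates 1, 2 and 3. Both extremes were Npm1+/+ libraries, which differed 4.05-fold among themselves, while the labelled Npm1+/- libraries differed 1.55-fold. Between the groups the log2 fold change was 0.15 (interval -0.90 to 1.20, adjusted p = 0.858 from edgeR). Without Npm1+/+ replicate 1 it turned to -0.22 (interval -0.89 to 0.45).
Cxcl3, the closest relative of Cxcl2 in the set, had 1286, 2875 and 2125 CPM in Npm1+/+ and 1936, 1816 and 2590.0 CPM in labelled Npm1+/- replicates 1, 2 and 3. Its values followed the same order over the Npm1+/+ libraries as those of Cxcl1, and the labelled Npm1+/- libraries lay between the extremes. The log2 fold change was 0.01 (interval -0.68 to 0.70) over 6 libraries and -0.25 (interval -0.75 to 0.26) without Npm1+/+ replicate 1.
Cxcl5, which in other tissues comes mainly from epithelial cells and platelets, was the lowest of the tested genes per length. It had 335, 715 and 458 counts, or 9.42, 20.2 and 12.2 CPM, in Npm1+/+ and 430, 723 and 659 counts, or 10.9, 17.3 and 18.0 CPM, in labelled Npm1+/- replicates 1, 2 and 3. The groups overlapped, and the log2 fold change was 0.14 (interval -0.60 to 0.89). It too turned without Npm1+/+ replicate 1, to -0.08. For the ELR chemokines a difference of more than about 2-fold lay outside the interval for Cxcl2, Cxcl3 and Cxcl5, but not for Cxcl1.

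**Figure D3:**
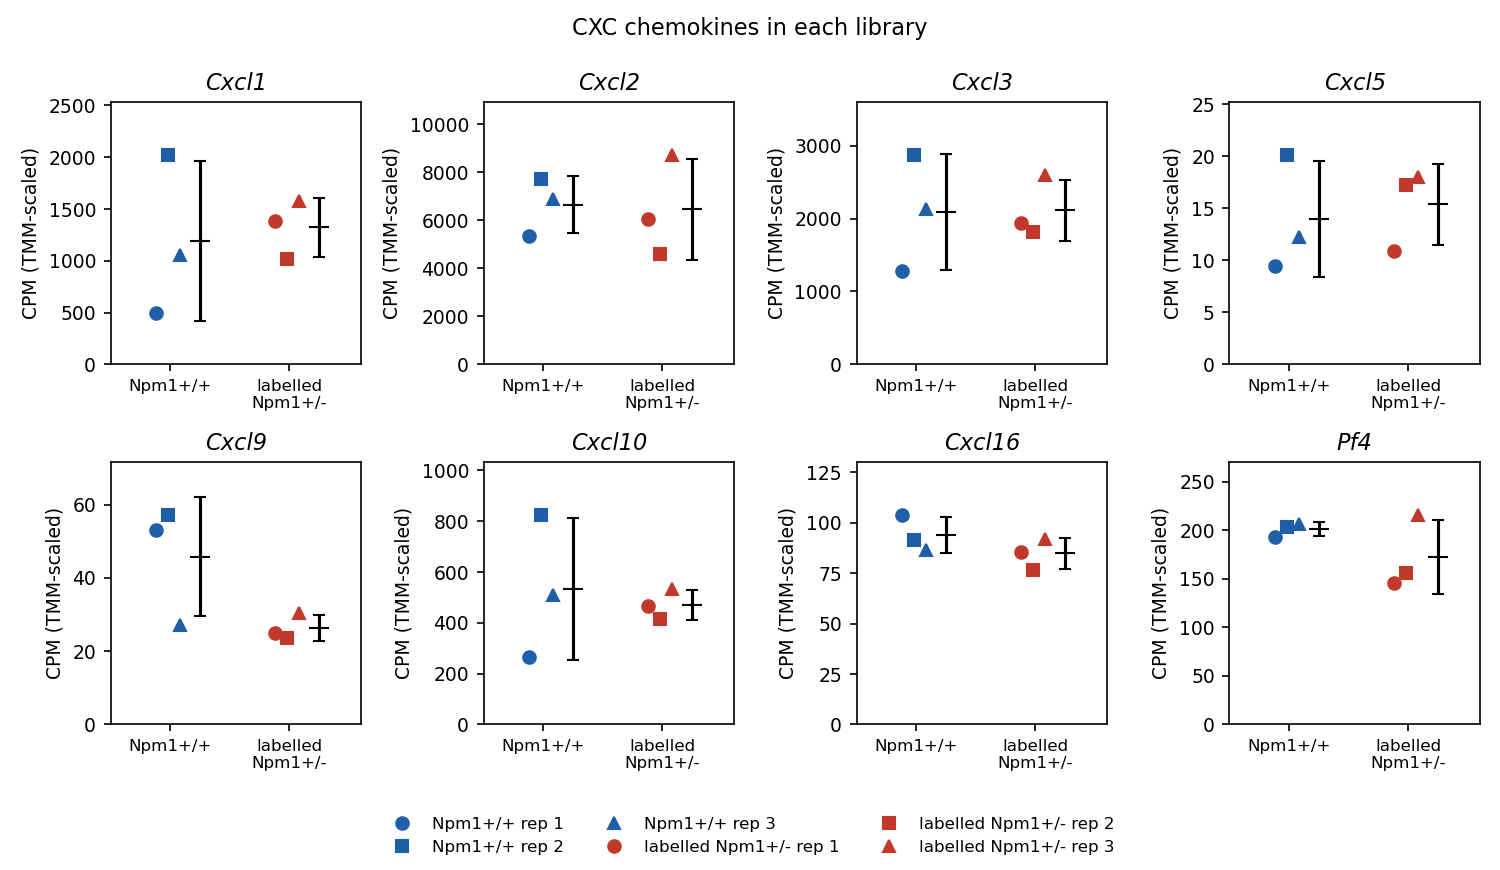
TMM-scaled CPM (vertical, linear from 0) of the 8 tested genes in each library, with the group means and SD (n = 3) as black bars beside the points. Npm1+/+ replicate 1 is the lowest library for Cxcl1, Cxcl3, Cxcl5 and Cxcl10, and Npm1+/+ replicates 1 and 2 are the highest for Cxcl9.

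Of the interferon-inducible pair, Cxcl9 had the largest estimate in size among the 8 tested genes. It had 1887, 2031 and 1016 counts, or 53.1, 57.2 and 27.2 CPM, in Npm1+/+ replicates 1, 2 and 3 and 985, 986 and 1108 counts, or 25.1, 23.5 and 30.3 CPM, in labelled Npm1+/- replicates 1, 2 and 3. Npm1+/+ replicates 1 and 2 were high, and Npm1+/+ replicate 3 lay among the labelled Npm1+/- libraries, below replicate 3 of that group. Npm1+/+ libraries averaged 45.8 ± 16.3 CPM (SD, n = 3) and labelled Npm1+/- libraries 26.3 ± 3.55 CPM (SD, n = 3), a 1.74-fold lower mean in labelled Npm1+/- libraries. The log2 fold change was -0.80 (standard error 0.28, interval -1.45 to -0.16, unadjusted p = 0.0212, adjusted p = 0.328 from edgeR), so it did not pass the threshold, and 8.31% of all genes tested were lower at an unadjusted p under 0.05. Without Npm1+/+ replicate 1 the log2 fold change was -0.69 (adjusted p = 0.406 from edgeR).
Cxcl10, the other interferon-inducible ligand, had 267, 826 and 509 CPM in Npm1+/+ and 465, 416 and 533 CPM in labelled Npm1+/- replicates 1, 2 and 3. The Npm1+/+ libraries spanned 3.1-fold and held both extremes, and the labelled Npm1+/- libraries spanned 1.28-fold between them. The log2 fold change was -0.18 (interval -1.02 to 0.66, adjusted p = 0.783 from edgeR). Without Npm1+/+ replicate 1 it was -0.51 (interval -1.01 to -0.01, unadjusted p = 0.048, adjusted p = 0.408 from edgeR), and without Npm1+/+ replicate 2 it turned to 0.28. Without Npm1+/+ replicate 1, edgeR found 2 of 8 genes, Cxcl9 and Cxcl10, at an unadjusted p under 0.05, against 12.2% of all genes tested.
The profiles of the pair differed. Cxcl10 exceeded Cxcl9 13.3-fold in FPKM in Npm1+/+ replicate 1 and between 38.1-fold and 49.5-fold in the other 5 libraries. In Npm1+/+ replicate 1 Cxcl9 was near its highest level while Cxcl10 was at its lowest.

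The ratio of Cxcl9 to Spp1, the gene of osteopontin, is used as a measure of the polarity of tumor macrophages, and it does not depend on the scaling between libraries. Spp1 stood at 652, 824 and 927 FPKM in Npm1+/+ and 1107, 1015 and 1083 FPKM in labelled Npm1+/- replicates 1, 2 and 3. Each labelled Npm1+/- library was above each Npm1+/+ library on this scale, but with TMM scaling the CPM values of the groups overlapped at the lower end, with 1464 and 1563 CPM in Npm1+/+ replicates 2 and 3 and 1469 CPM in labelled Npm1+/- replicate 2. The log2 fold change of Spp1 in edgeR was 0.28 (interval -0.12 to 0.68, adjusted p = 0.393).
Spp1 exceeded Cxcl9 38.3-fold, 44.8-fold and 100.8-fold in Npm1+/+ replicates 1, 2 and 3 and 122-fold, 109-fold and 107-fold in labelled Npm1+/- replicates 1, 2 and 3. The log2 ratio of Cxcl9 to Spp1 was -5.80 ± 0.75 (SD, n = 3) in Npm1+/+ and -6.82 ± 0.10 (SD, n = 3) in labelled Npm1+/- libraries, a difference of -1.02 (two-sided p = 0.1 by an exact permutation test over 20 arrangements, which can give no smaller p). The ratio was lower in 3 of 3 labelled Npm1+/- libraries than in each Npm1+/+ library, although Npm1+/+ replicate 3, at -6.66, lay close to the highest of them at -6.74. The summed macrophage and neutrophil markers did not overlap between the groups either, whereas those of T and NK cells did, and their part in the ratio was not tested.

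**Figure D4:**
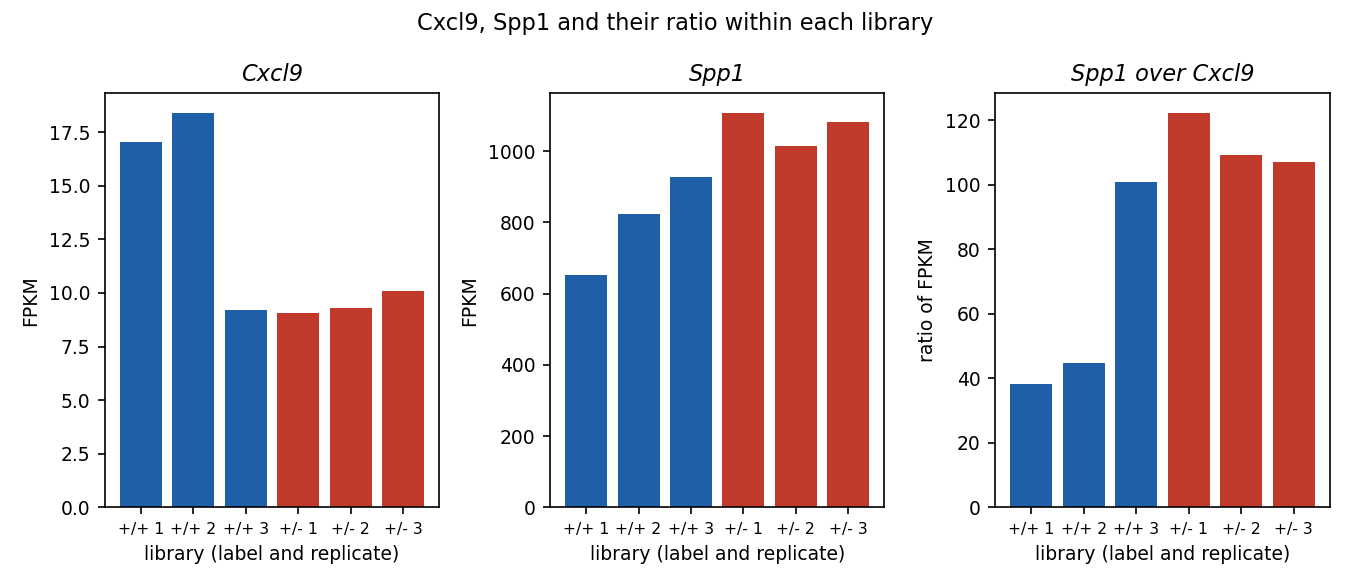
Deposited FPKM of Cxcl9 (left) and Spp1 (middle) and the ratio of Spp1 to Cxcl9 (right) in each library, on axes from 0, with Npm1+/+ libraries in blue and labelled Npm1+/- libraries in red. Npm1+/+ replicates 1 and 2 have ratios of 38.3 and 44.8, and the other 4 libraries lie between 100.8 and 122.

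Cxcl16, the membrane-bound ligand of Cxcr6 and a scavenger receptor for oxidized lipoprotein, was the steadiest gene of the set. It had 104, 91.4 and 86.6 CPM in Npm1+/+ and 85.7, 76.7 and 91.8 CPM in labelled Npm1+/- replicates 1, 2 and 3. Its highest and lowest library differed 1.36-fold, and the log2 fold change was -0.15 (interval -0.44 to 0.14, adjusted p = 0.496 from edgeR). Adam10, the protease that sheds Cxcl16, ranged from 116 to 188 CPM over the 6 libraries.
Pf4 had 193, 204 and 207 CPM in Npm1+/+ and 146, 156 and 216 CPM in labelled Npm1+/- replicates 1, 2 and 3. The Npm1+/+ libraries lay within 1.07-fold of each other, and labelled Npm1+/- replicates 1 and 2 were below them, while replicate 3 was above. Its log2 fold change was -0.22 (interval -0.61 to 0.16, adjusted p = 0.451 from edgeR). The listed markers of platelets and megakaryocytes were not alike. Of the 7 in the table other than Ppbp, the highest count in any library was 59, for Itga2b, and Gp9 had at most 3 counts. Ppbp, the neighbouring platelet chemokine and a marker of the same list, had 5115 to 8986 counts (143 to 246 CPM), with a log2 fold change of 0.01. Which cells the Pf4 and Ppbp transcripts came from was not tested.

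The homeostatic ligands were at or near the limit of detection. A count of 0 allows up to 3 counts, or between 0.0716 and 0.0846 CPM at this depth, and this limit and the intervals on counts cover counting error only. Cxcl12 had 1, 4 and 0 counts in Npm1+/+ and 8, 10 and 9 counts in labelled Npm1+/- replicates 1, 2 and 3. Each labelled Npm1+/- library was above each Npm1+/+ library. The summed counts, 5 and 27, gave a ratio of 4.97 after scaling (exact interval 1.89 to 16.5, counting error only), with no test between mice, and of the 1896 genes that failed the filter with at least 20 counts in all, 14% had groups without overlap. Fibroblasts are a main source of Cxcl12, and the fibroblast markers were at 32.7, 491 and 305 CPM in Npm1+/+ and 715, 615 and 369 CPM in labelled Npm1+/- replicates 1, 2 and 3, so that they were higher in labelled Npm1+/- libraries 1 and 2 than in any Npm1+/+ library. Most of this sum was Col3a1, with 19.0, 426 and 245 CPM in Npm1+/+ and 604, 474 and 308 CPM in labelled Npm1+/- replicates 1, 2 and 3. The part of the fibroblast markers in the Cxcl12 counts was not tested. Cxcl13, the B cell attractant, had 7, 0 and 1 counts in Npm1+/+ and 0, 1 and 1 counts in labelled Npm1+/- replicates 1, 2 and 3, and no difference was detectable at this depth.

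For 6 of the 8 genes the libraries spread wider than for the median gene. The range of log2 CPM over the 6 libraries was 2.02 for Cxcl1, 1.63 for Cxcl10, 1.28 for Cxcl9, 1.16 for Cxcl3, 1.09 for Cxcl5, 0.93 for Cxcl2, 0.57 for Pf4 and 0.44 for Cxcl16, against a median of 0.86 over all genes tested. Npm1+/+ replicate 1 was the lowest library for 4 of 8 genes (Cxcl1, Cxcl3, Cxcl5 and Cxcl10) and Npm1+/+ replicate 2 the highest for 5 (the same 4 and Cxcl9). Relative to the mean, the spread was larger among Npm1+/+ than among labelled Npm1+/- libraries for 6 of 8 genes, the exceptions being Cxcl2 and Pf4, and for 68.5% of all genes tested.
The likeness of profiles was measured as the root mean square difference of log2 CPM, each gene centred on its mean over the 6 libraries, where a smaller value is a closer profile. The measure was not scaled by range, so genes that vary little come out close to each other. Among the 28 pairs of tested genes the closest were Cxcl3 and Cxcl10, with 0.16, and the farthest were Cxcl1 and Cxcl9, with 0.86. Cxcl9 and Cxcl10, neighbours on chromosome 5, differed by 0.68, and Cxcl2 and Cxcl3 by 0.23. The order did not follow the split by receptor, since Cxcl10 was nearer to Cxcl3 (0.16) and Cxcl1 (0.24) than to Cxcl9.

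**Figure D5:**
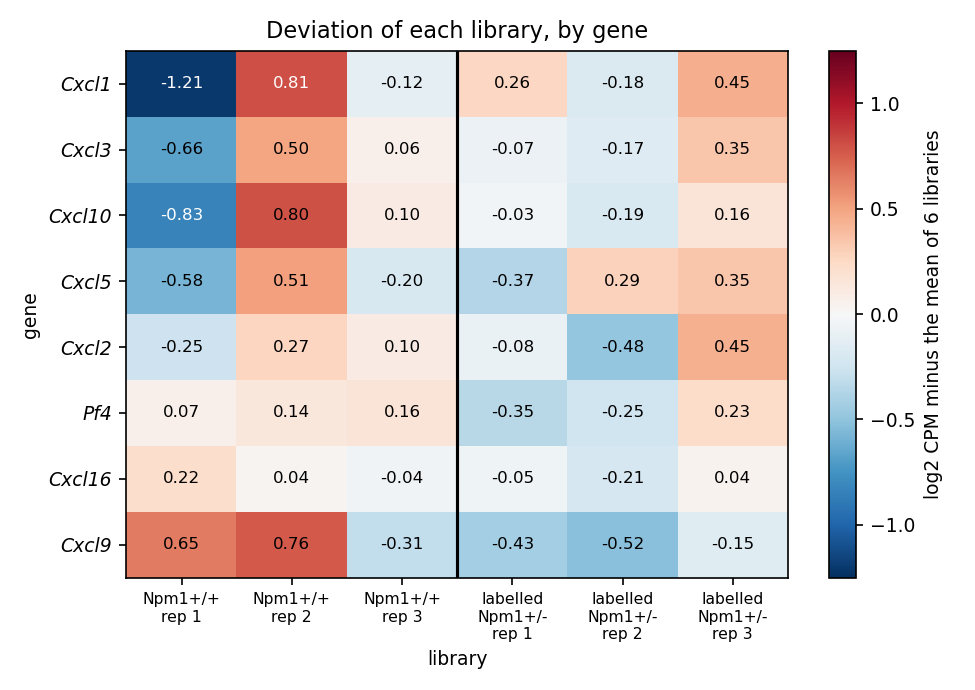
Deviation of log2 CPM from the gene's mean over 6 libraries (color and printed value) for the 8 tested genes (rows) in each library (columns). Npm1+/+ replicate 1 is low for Cxcl1 (-1.21), Cxcl10 (-0.83), Cxcl3 (-0.66) and Cxcl5 (-0.58) and high for Cxcl9 (0.65).

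Over all genes tested, the nearest profiles were found by the same measure over 6 libraries. Those nearest to Cxcl3 were Ccl2 (0.06), a monocyte attractant, and Sdc4 (0.09), and those nearest to Cxcl2 were Sgms1 (0.04) and Msr1 (0.08), a scavenger receptor. Serpinb2 (0.17) and Tnr (0.20) were nearest to Cxcl1, Ell2 (0.12) to Cxcl10, and Ino80dos (0.11) and Gm29946 (0.15) to Cxcl5. Nearest to Cxcl9 were Flt1 (0.14), a receptor of vascular endothelial growth factor, and Slamf8 (0.16), which had log2 fold changes of -0.88 and -0.85 (adjusted p = 0.328 for each from edgeR). Tmem63a (0.01) and Ap2m1 (0.02) were nearest to Cxcl16, and Jag1 (0.07) to Pf4. Each was compared with 13883 genes, and how close the nearest of so many would come by chance over 6 libraries was not tested.

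Receptors of these ligands were read from the same libraries. Of 8 receptors, 7 were tested and 0 were called by edgeR, with 4 estimates above 0. Cxcr1, Cxcr2 and Cxcr4 were at an unadjusted p under 0.05, with estimates below 0. These 3 of 7 stand against 15.2% of all genes tested, and the groups did not overlap in 3 of 7 receptors, against 25.9% of all genes tested. Cxcr2, the neutrophil receptor of the ELR chemokines, had the smallest p among lower receptors. It stood at 58.9, 49.9 and 54.1 CPM in Npm1+/+ and 34.9, 14.2 and 34.2 CPM in labelled Npm1+/- replicates 1, 2 and 3, without overlap (log2 fold change -0.97, interval -1.71 to -0.23, adjusted p = 0.328 from edgeR). The neutrophil markers, a list that holds Cxcr2 itself, were 9 of 9 below 0 in estimate, 5 of them without overlap (25.9% of all genes tested, in either direction), and their part in the level of Cxcr2 was not tested.
Ackr3, the scavenging receptor of Cxcl12, had the smallest p among higher receptors, with 6.66, 22.0 and 16.1 CPM in Npm1+/+ and 28.3, 25.1 and 24.7 CPM in labelled Npm1+/- replicates 1, 2 and 3 (log2 fold change 0.80, interval -0.08 to 1.69, adjusted p = 0.334 from edgeR). Its groups did not overlap. Of 5 further CXC ligands, 3 were in the table and 2, Cxcl14 and Ppbp, were tested, with estimates above 0 and 0 called. Cxcl14 had 24 to 74 counts and a log2 fold change of 0.10.

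The list of the interferon gamma pathway holds the cytokine, its signalling genes and other genes that it induces, and 15 of 16 were tested and 0 were called by edgeR. Of these, 5 estimates were above 0 and 10 below, with a median of -0.17, and in 6 of 15 the groups did not overlap, against 25.9% of all genes tested. Irf1, a transcription factor of the pathway, had the smallest p among the higher genes. It stood at 300.1, 286 and 226 CPM in Npm1+/+ and 394, 412 and 375 CPM in labelled Npm1+/- libraries (log2 fold change 0.54, interval 0.21 to 0.87, adjusted p = 0.328 from edgeR). Ifng, the cytokine itself, made by T and NK cells, was named after its values were seen. It had 39, 37 and 165 counts in Npm1+/+ and 265, 803 and 131 counts in labelled Npm1+/- replicates 1, 2 and 3, and the groups overlapped. The markers of T and NK cells were 34.2, 43.9 and 114 CPM and 107, 257 and 90.3 CPM in the same libraries, with 9 of 9 estimates above 0, and their part in the level of Ifng was not tested.
For the NF-kB list, 16 of 16 genes were tested and 0 were called, with 7 estimates above 0, 9 below, a median of -0.12 and 2 of 16 without overlap, against the same 25.9%. Tnf, an inflammatory cytokine, had the smallest p among the higher genes, with 393, 541 and 393 CPM in Npm1+/+ and 705, 711 and 770.0 CPM in labelled Npm1+/- replicates 1, 2 and 3 (log2 fold change 0.72, interval 0.34 to 1.10, adjusted p = 0.328 from edgeR). Its groups did not overlap, unlike those of Cxcl1, Cxcl2 and Cxcl3. Bcl3, a nuclear regulator of the pathway, had the smallest p among the lower genes (log2 fold change -0.67, interval -1.10 to -0.24). Of the proteases that cut chemokines, 10 of 10 were tested and 0 called, with 9 estimates below 0. Mmp8, a neutrophil collagenase, had a log2 fold change of -0.53 and Mmp2, a gelatinase of stromal cells, of 1.11. In the list of IL-17 and neutrophil-recruiting cytokines, 8 of 8 were tested, with 4 estimates in each direction and 0 called, and Il17ra and Csf2 had the smallest p, with log2 fold changes of -0.69 and 1.58. Csf2 was below 1.1 CPM in every library.

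The choice of libraries and test together moved the number of genes called. With Npm1+/+ replicate 1 and labelled Npm1+/- replicate 3 left out, DESeq2 called 3 of 8 genes, all lower, where it called 10.6% of all genes. These were Pf4 (log2 fold change -0.49, adjusted p = 0.0289), Cxcl10 (-0.65, adjusted p = 0.0366) and Cxcl9 (-0.84, adjusted p = 0.037), whereas over all 6 libraries DESeq2 gave them adjusted p of 0.525, 0.769 and 0.173. edgeR's quasi-likelihood test on the same 4 libraries called 0 of 8, and the adjusted p were 0.121, 0.177 and 0.181. Of the libraries left out, labelled Npm1+/- replicate 3 was the highest of its group for Pf4, Cxcl10 and Cxcl9. Npm1+/+ replicate 1 was the lowest of its group for Pf4 and Cxcl10. No other choice of 4 libraries was fitted, so the calls of DESeq2 hold for this choice alone. Groups without overlap numbered 0 of 8 genes without Npm1+/+ replicate 1 (31.8% of all genes tested), 1 of 8, Cxcl9, without Npm1+/+ replicate 3 (41.9%) and 3 of 8, Cxcl9, Cxcl16 and Pf4, without labelled Npm1+/- replicate 3 (49.8%). They numbered 0 of 8 without Npm1+/+ replicate 2 (43.9%), labelled Npm1+/- replicate 1 (29.6%) or labelled Npm1+/- replicate 2 (30.1%).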

How the data were processed

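RNA of 3 wt and 3 ko libraries (Npm1+/+ and labelled Npm1+/-) was used. The table deposited by the authors gives raw read counts for each gene beside FPKM values. A check on 12251 genes showed each deposited FPKM to be the count over a fixed gene length and the library total. The submitters' notes give mm10 as the build. The aligner, counting tool and annotation are not given in the sources used here, and no tool is given for differential expression. The study describes RNA of sorted macrophages, isolated with a column kit and made into cDNA with a low-input kit, and the labels describe TRIzol extraction and a small RNA library.

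Counts were fitted with edgeR 4.0.16 in R 4.3.3 (filterByExpr, TMM, glmQLFit, glmQLFTest), with Benjamini-Hochberg adjustment over 13884 genes and a threshold of 0.05. For log2 CPM the prior count was 2, and each standard error was taken from the fold change and its F statistic. DESeq2 1.42.0 and limma 3.58.1 (log2 of FPKM plus 1 or plus 0.1) served as alternatives. The fits were tested on simulated counts of 6 libraries in which 200 genes were changed. edgeR recovered 94.5% of these with 14 false calls, DESeq2 97.5% with 71 and limma 95% with 22. DESeq2 thus made the most false calls, and its fit to 4 libraries was not simulated. The members and gene lists were chosen with earlier results of these data known. Named genes were Npm1, the members, Spp1, the gene with the smallest p in each direction of each list, and the 2 nearest profiles, and some genes that this rule names are not reported here. Since nothing but a biosample number separates replicates, p-values measure the spread between these libraries.

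Lists of markers not described with the results were those of dendritic cells (sums of 326 to 494 CPM in Npm1+/+ and 398 to 521 in labelled Npm1+/- libraries), endothelial cells (34.5 to 43.2 and 32.9 to 36.9), B cells (6.26 to 36.1 and 11.8 to 58.0) and epithelial or carcinoma cells (35.2 to 137 and 129 to 191).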

Additional observations from a re-analysis of the deposited data

How the results depend on the processing

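Of the genes of the set, 0 were called in each edgeR and limma alternative and in DESeq2 on 6 libraries. Over all genes, edgeR called 0 in each alternative, with 669 to 3290 at an unadjusted p under 0.05, and DESeq2 called 36 over 6 libraries and 1283 without Npm1+/+ replicate 1 and labelled Npm1+/- replicate 3, where 3 of the 8 genes were called. The cause was not tested. When 1 library was left out, groups that did not overlap numbered 0 to 3 of 8 genes, against 29.6% to 49.8% of all genes tested. In the same settings the Cxcl9 to Spp1 log2 ratio differed by -1.44 to -0.75. Cxcl9 (-1.08 to -0.54) and Pf4 (-0.49 to -0.10) stayed below 0 in all 16 alternatives.

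Signs that changed were these, as log2 fold changes that did not pass the threshold. With limma on FPKM, Cxcl2 was 0.074, Cxcl10 0.11 and Cxcl16 0.00024 with plus 1 and 0.00028 with plus 0.1, where the median of all genes was 0.09 and 0.16 in turn, against 0.02 with edgeR. Cxcl3 was -0.0089 with DESeq2 and -0.0029 with RLE factors. Leaving out 1 library gave -0.22 to 0.76 for Cxcl1, -0.33 to 0.15 for Cxcl2, -0.25 to 0.31 for Cxcl3, -0.075 to 0.50 for Cxcl5 and -0.51 to 0.28 for Cxcl10. Among these, Cxcl1 was -0.00052 and Cxcl3 -0.16 without labelled Npm1+/- replicate 3, and Cxcl2 was 0.075 without Npm1+/+ replicate 2 and 0.0026 without labelled Npm1+/- replicate 1. On the 4 libraries, edgeR and DESeq2 gave -0.37 and -0.41 for Cxcl1, -0.42 and -0.46 for Cxcl3, and -0.20 and -0.25 for Cxcl5.

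The labels do not say whether equal replicate numbers mark paired libraries. The deviations of libraries with equal numbers correlated at -0.24, 0.06 and -0.34 in turn. With 3 libraries per group these values cannot exclude pairing. A fit with a replicate block was also run, in which 0 genes were called, 1606 at an unadjusted p under 0.05, and 0 of 8 genes of the set had an unadjusted p under 0.05. The depth limits Cxcl12 and Cxcl13.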
